A study of Bos taurus with 34 samples.

Results

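A set of blood-cell and inflammation-related microRNAs (miRNAs) was followed in the cell-free blood of dairy cows with and without subclinical endometritis (SCE), in which the lining of the uterus is inflamed but the cow shows no outward signs. The set was taken by name and holds bta-miR-223, bta-miR-142-5p, bta-miR-142-3p, bta-miR-146a, bta-miR-146b and bta-miR-155, 6 of the 800 mature miRNA names in the count files. The species prefix is dropped below. The libraries came from 11 cows with SCE and 6 healthy cows, each labelled as sampled at day 25 and day 45, where the series' design text gives 21 and 44 days after calving. Status was judged from endometrial cytology and biopsy, the labels name serum while the design text names plasma, and no treatment is recorded for any cow. The groups were SCE at day 45 (11 libraries), SCE at day 25 (11), healthy at day 45 (6) and healthy at day 25 (5). For healthy cow 3 both deposited files held the same values, so only its day-45 library was kept and 33 of 34 libraries were used. The values alone do not show which day they belong to, so the day of this library is uncertain.

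miRNAs are short RNAs that bind partly matching messenger RNAs and lower their output, and some of them are released from cells into blood. miR-223 is made mainly in neutrophils and monocytes, and mice without it have overactive neutrophils. The miR-142 hairpin is expressed in blood cells in general and yields a mature miRNA from each arm. miR-146a and miR-146b come from separate loci, share a seed, are induced by NF-κB in human and mouse cells and dampen Toll-like receptor signalling through the adaptors IRAK1 and TRAF6. miR-155 is induced in activated macrophages and lymphocytes of mouse and human, where it lowers the inhibitors SHIP1 and SOCS1. In a cell-free sample, more releasing cells and more release per cell cannot be told apart.

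Library totals ranged from 678389 to 28872153 counts, and SCE cow 10 had the shallowest library at each day, with 678389 counts at day 45 and 1343401 at day 25. Depth differed with status. The median total was 9354855 counts in SCE cows at day 45 and 8454315 at day 25, against 16939641.5 and 15570759 in healthy cows. miR-486, a red blood cell miRNA, took a median of 36.5% of counts in SCE cows at day 45, 10.8% in SCE cows at day 25, 48.0% in healthy cows at day 45 and 45.3% in healthy cows at day 25. Levels are given as CPM, counts brought to a common library size, with TMM scaling, which sets the bulk of the miRNAs equal between libraries, because a miRNA of this abundance lowers the share of all others. With library totals alone, the median SCE-minus-healthy log2 fold change of all tested miRNAs moved up by 0.65 at day 45, 0.93 at day 25 and 0.74 over both days. Library title numbers run from 31 to 52 in SCE and from 13 to 24 in healthy cows, so a preparation order that followed them cannot be told apart from status.

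All 6 miRNAs were detected in each of the 33 libraries, and none had a count of 0. miR-142-5p led by a wide margin, with 19827 ± 3582 CPM over the 17 cows (SD, n = 17, both days summed), which placed it 10th of 800 names and gave it 88.2% of the reads of the 6. miR-223 followed with 1453 ± 706 CPM and miR-142-3p with 1245 ± 853 CPM, at places 48 and 54. miR-155 had 157 ± 64.4 CPM, miR-146a 78.9 ± 67.2 CPM and miR-146b 60.4 ± 53.6 CPM, at places 110, 131 and 141 (SD, n = 17 each). Levels of different miRNAs also carry the ligation and PCR preferences of the library preparation, so this order is one of reads. Exact sign-flip tests over the 17 cows, adjusted over the 5 neighbouring pairs, separated the first 4 steps of the order. miR-142-5p exceeded miR-223 in 17 of 17 cows (exact adjusted p = 3.8e-05) and miR-142-3p exceeded miR-155 in 17 of 17 (exact adjusted p = 3.8e-05). miR-223 exceeded miR-142-3p in 14 of 17 cows and miR-155 exceeded miR-146a in 12 of 17 (exact adjusted p = 0.0099 for each). miR-146a and miR-146b did not differ beyond the spread between cows, with miR-146a the higher in 11 of 17 (exact adjusted p = 0.065). Leaving out any of healthy cows 1, 2, 3 and 4 or SCE cow 7 brought that p to between 0.020 and 0.050.

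**Figure D1:**
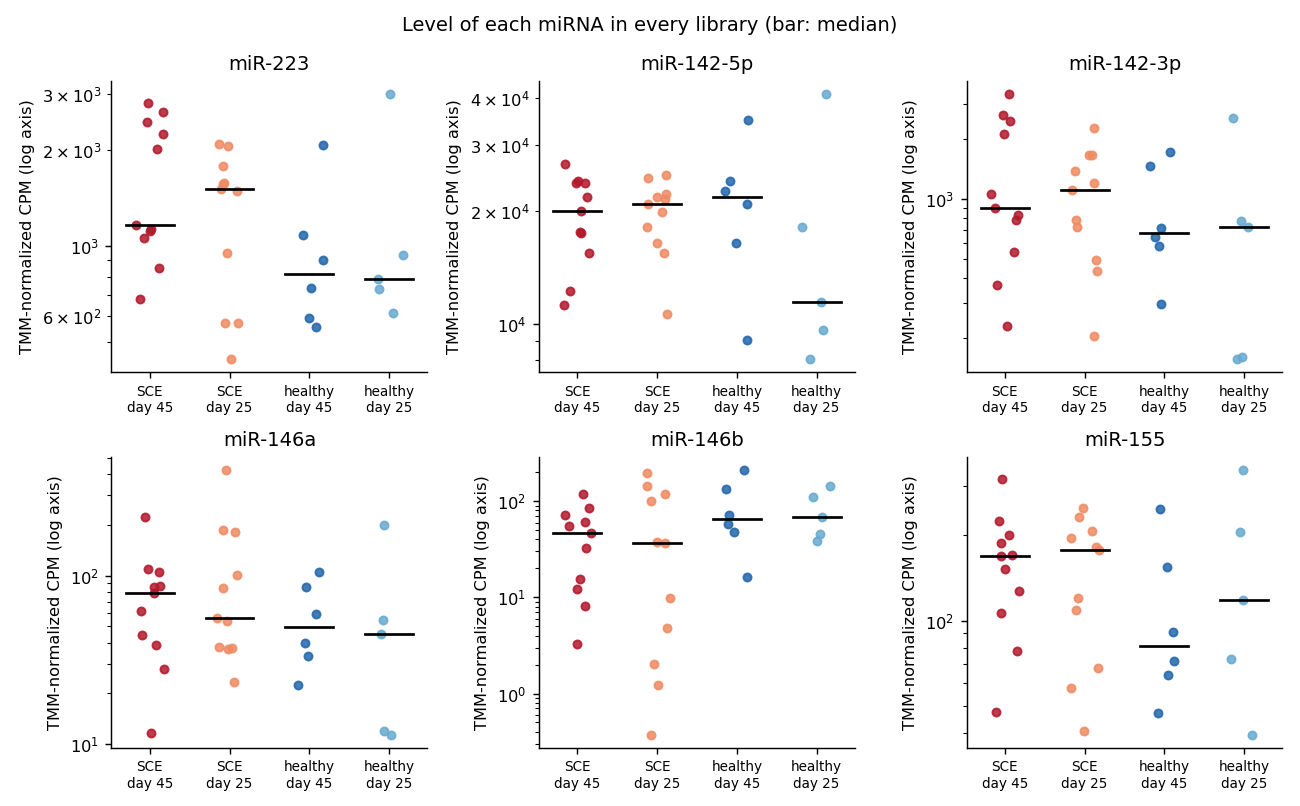
TMM-normalized CPM of each miRNA (log axis) in every library by status and day, with a bar at the group median. Points of SCE and healthy cows overlap in every panel, miR-142-5p is the highest of the 6, and miR-146b reaches down to 0.37 CPM in SCE cows at day 25.

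Together the 6 miRNAs took a larger median share of raw counts in SCE than in healthy libraries. The share had a median of 2.69% (range 1.68 to 4.75%) in SCE cows at day 45 and 3.73% (0.523 to 4.90%) in SCE cows at day 25, against 1.34% (0.895 to 3.44%) in healthy cows at day 45 and 0.943% (0.499 to 3.82%) in healthy cows at day 25. The ranges overlapped at both days. The share of miR-486 had lower medians in SCE cows, as given above, and its part in this difference was not tested.

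None of the 6 miRNAs passed the test between SCE and healthy cows at either day or over both days. The test was edgeR's quasi-likelihood F test with Benjamini-Hochberg adjustment over all miRNAs tested, at an adjusted p of 0.05. At day 45 it called 0 of 382 miRNAs (0% background) and 0 of the 6, at day 25 it called 1 of 372 (0.269% background) and 0 of the 6, and over both days 1 of 418 (0.239% background) and 0 of the 6. An unadjusted p under 0.05 was held by 39 miRNAs at day 45 (10.2%), 75 at day 25 (20.2%) and 69 over both days (16.5%), and by none of the 6 in any of the 3 comparisons. DESeq2, run as an alternative, called 1, 14 and 15 miRNAs at day 45, at day 25 and over both days, and again none of the 6. No miRNA of the 6 had statuses that did not overlap in CPM, beside 0% of all tested at day 45, 0.269% at day 25 and 0% over both days. The members' median log2 fold change was 0.56 at day 45, 0.12 at day 25 and 0.41 over both days, beside 0.11, -0.05 and 0.04 for all miRNAs tested. It was positive for 4 of 6 at day 45 (57.1% of all tested), 4 of 6 at day 25 (47.8%) and 5 of 6 over both days (53.1%).

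**Figure D2:**
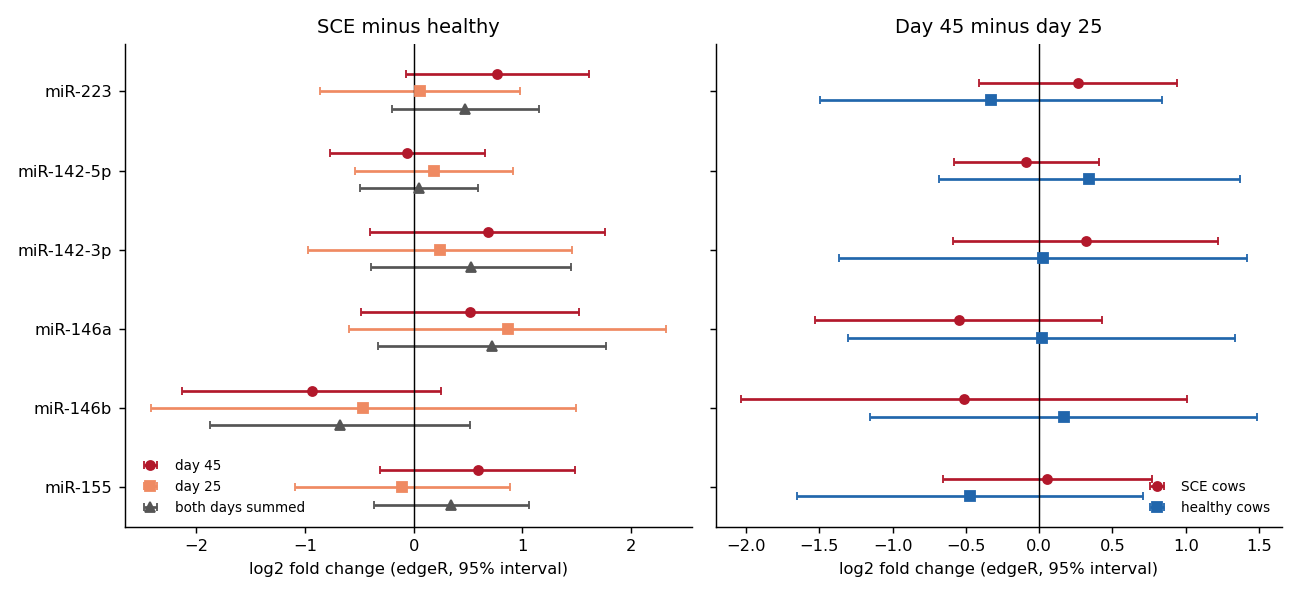
Log2 fold changes (x axis) of the 6 miRNAs with 95% intervals from edgeR, SCE minus healthy at day 45, day 25 and over both days on the left, and day 45 minus day 25 within SCE and within healthy cows on the right. All intervals include 0, and that of miR-223 at day 45, from -0.07 to 1.61, comes nearest to excluding it.

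miR-223 had a higher median in SCE cows at both days and did not pass the test. At day 45 it ranged from 683 to 2815 CPM with a median of 1168 in SCE cows, against 555 to 2071 CPM with a median of 818 in healthy cows. Of the 11 SCE cows, 10 lay above the healthy median and 4 exceeded the whole healthy group, while healthy cow 3, with 2071 CPM, stood apart from the other healthy cows. The log2 fold change was 0.77 (SE 0.41, edgeR p = 0.0705, adjusted p = 0.546), and without healthy cow 3 it was 1.20, still short of the test. At day 25 miR-223 ranged from 441 to 2087 CPM with a median of 1508 in SCE cows, against 3000.3, 939, 785, 729 and 615 CPM in the 5 healthy cows. Healthy cow 4, at 3000.3 CPM, was above every SCE cow, and 3 SCE cows were below every healthy one. The log2 fold change at day 25 was 0.06 (SE 0.44, edgeR adjusted p = 0.946), or 0.79 without healthy cow 4, and over both days 0.48 (SE 0.33, edgeR adjusted p = 0.423). The interval over both days, -0.20 to 1.15, leaves room for no difference and for one of more than 1 log2 unit. With library totals alone in the place of TMM, miR-223 was called over both days at a log2 fold change of 1.18 (edgeR adjusted p = 0.045), a value that includes the common shift of 0.74 given above. That setting called 64 of 418 miRNAs, all of them higher in SCE cows, so the call is not particular to miR-223.

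miR-142-5p, the dominant arm of its hairpin, was among the most even miRNAs between cows. Over both days it had a median of 19637 CPM (range 15065 to 23832) in SCE cows and 21428 CPM (range 11214 to 24410) in healthy cows. The SD of its log2 level between cows of one status was 0.30, the 3rd lowest of 418 miRNAs, whose median SD was 0.91. With library totals alone the SD was 0.52 and the 21st lowest. Single libraries varied more, at an SD of 0.55, the 14th lowest of 406. The log2 fold change over both days was 0.05 (SE 0.26, edgeR adjusted p = 0.951), with an interval of -0.49 to 0.59 that is the narrowest of the 6 and, under TMM, excludes a doubling in either direction. Scaling by library totals alone gave 0.78 (edgeR adjusted p = 0.082), beside the common shift of 0.74.

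At day 45 miR-142-5p ranged from 11271 to 26697 CPM with a median of 19998 in SCE cows, and from 9065 to 34925 CPM with a median of 21798 in healthy cows. Healthy cows thus held both the highest and the lowest library, and the log2 fold change was -0.06 (SE 0.35, edgeR adjusted p = 0.967). At day 25 the range was 10631 to 24966 CPM with a median of 20852 in SCE cows, against 40980, 18174, 11424, 9639 and 8078 CPM in the healthy cows. In SCE 10 of 11 cows lay above the healthy median there, although healthy cow 5 exceeded all of them, and the log2 fold change was 0.19 (SE 0.35, edgeR adjusted p = 0.791), or 0.65 without healthy cow 5.

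miR-142-3p, cut from the other arm of the same hairpin, spread far more widely than its partner. Its SD between cows was 1.10 on the log2 scale. At day 45 it ranged from 229 to 3359 CPM with a median of 905 in SCE cows, against 298 to 1713 CPM with a median of 678 in healthy cows. In SCE 4 cows exceeded the healthy range and 1 lay below it, at a log2 fold change of 0.68 (SE 0.53, edgeR adjusted p = 0.675). At day 25 it ranged from 206 to 2266 CPM with a median of 1113 in SCE cows, and measured 2537, 778, 727, 160 and 157 CPM in healthy cows. The SCE cows lay within the healthy range, and the log2 fold change was 0.24 (SE 0.58, edgeR adjusted p = 0.846), or 1.26 without healthy cow 4, the highest. Over both days it was 0.53 (SE 0.45, edgeR adjusted p = 0.540).

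Reads of miR-142-5p outnumbered those of miR-142-3p in 33 of 33 libraries, by 3.80 to 116 times with a median of 23.0. This within-library ratio does not depend on scaling. Its median was 16.7 in SCE cows at day 45, 22.05 in SCE cows at day 25, 29.5 in healthy cows at day 45 and 56.4 in healthy cows at day 25. The mean log2 ratio was 4.13 ± 0.95 in SCE cows (SD, n = 11) and 4.67 ± 1.42 in healthy cows (SD, n = 6) over both days. The difference of -0.54 was within that spread (exact two-sided permutation p = 0.357, adjusted p = 0.646 over 20 ratio tests). The TMM levels of the arms had r = 0.04 over the 17 cows, which joins 0.53 within SCE and -0.43 within healthy cows, and r = 0.56 with library totals alone (permutation adjusted p = 0.049).

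miR-146a had higher group medians in SCE cows than in healthy cows at both days, with wide overlap. At day 45 it ranged from 11.7 to 223 CPM with a median of 79.2 in SCE cows, against 22.4 to 105 CPM with a median of 49.6 in healthy cows. In SCE 3 cows exceeded the healthy range and 1 lay below it, and the log2 fold change was 0.52 (SE 0.49, edgeR adjusted p = 0.701), or 0.25 without SCE cow 13. At day 25 the range was 23.4 to 425 CPM with a median of 56.1 in SCE cows, against 200.4, 54.3, 45.2, 11.95 and 11.4 CPM in healthy cows. Only SCE cow 13, at 425 CPM, exceeded healthy cow 5, and the log2 fold change was 0.87 (SE 0.70, edgeR adjusted p = 0.508). It was 1.79 without healthy cow 5 and 0.52 without SCE cow 13. Over both days it was 0.72 (SE 0.51, edgeR adjusted p = 0.433), and it ran from 0.21 without SCE cow 13 to 1.11 without healthy cow 5.

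miR-146b was the most variable of the 6 and had lower medians in SCE cows. By library its log2 SD of 2.08 ranked 404th of 406 miRNAs from the lowest. At day 45 it ranged from 3.28 to 119 CPM with a median of 46.2 in SCE cows, against 16.2 to 211 CPM with a median of 65.2 in healthy cows. At day 25 it ranged from 0.37 to 196 CPM with a median of 36.9 in SCE cows, against 143, 112, 68.5, 45.1 and 38.1 CPM in healthy cows. In SCE 7 of 11 cows at day 25 and 4 of 11 at day 45 were below every healthy cow, and SCE cow 13 at day 25 was above them. The 4 lowest libraries at day 25 were those of SCE cows 16, 12, 15 and 17, with 6, 20, 24 and 80 reads of miR-146b beside 591, 610, 275 and 623 reads of miR-146a. The log2 fold change was -0.94 at day 45 (SE 0.58, edgeR adjusted p = 0.619), -0.46 at day 25 (SE 0.94, edgeR adjusted p = 0.819) and -0.67 over both days (SE 0.58, edgeR adjusted p = 0.547). Leaving out 1 cow gave -1.18 to -0.29 at day 45, -0.77 to -0.16 at day 25 and -1.18 to -0.32 over both days, each nearest to 0 without healthy cow 2. Under library totals alone the values were -0.098, 0.16 and 0.077, which include the common shift, so the direction at day 25 and over both days depends on the scaling.

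The balance of the 2 paralogs, read within each library, leaned to miR-146a in SCE cows and to miR-146b in healthy cows, and did not pass after adjustment. At day 45 miR-146a had 0.804 to 10.6 reads per read of miR-146b in SCE cows with a median of 1.44, against 0.281 to 1.38 in healthy cows with a median of 0.752. At day 25 it had 0.591 to 91.0 reads per read in SCE cows with a median of 4.90, against 2.92, 0.406, 0.381, 0.302 and 0.266 in healthy cows. miR-146a was the more abundant in 7 of 11 SCE and 2 of 6 healthy cows at day 45, and in 10 of 11 SCE and 1 of 5 healthy cows at day 25. At each day 6 of 11 ratios in SCE exceeded the healthy range and none lay below it.

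On the log2 scale the ratio averaged 1.05 ± 1.38 in SCE cows (SD, n = 11) and -0.41 ± 0.81 in healthy cows (SD, n = 6) at day 45, a difference of 1.46 (exact two-sided permutation p = 0.031). At day 25 it averaged 2.20 ± 2.19 in SCE cows (SD, n = 11) and -0.96 ± 1.42 in healthy cows (SD, n = 5), a difference of 3.15 (exact two-sided permutation p = 0.011). Over both days it averaged 1.24 ± 1.26 in SCE cows (SD, n = 11) and -0.44 ± 0.86 in healthy cows (SD, n = 6), a difference of 1.68 (exact two-sided permutation p = 0.0082). Adjusted over the 20 ratio tests these exact permutation values became 0.206, 0.114 and 0.114. The 2 days share their cows, so the 3 values are not independent of each other. The sources used here do not say how reads matching both names were assigned, and these near-identical paralogs could share reads.

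**Figure D3:**
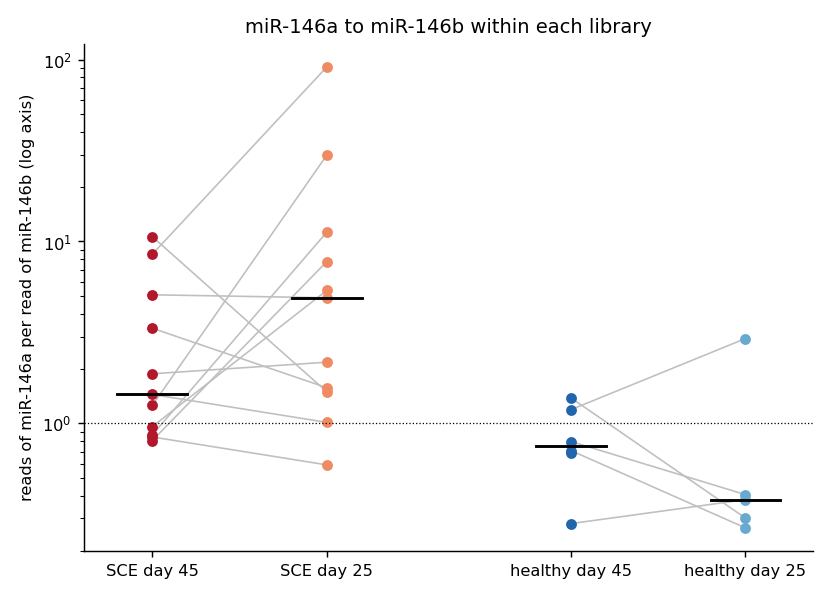
Reads of miR-146a per read of miR-146b (log axis) in each library by status and day, with lines joining the libraries of 1 cow, bars at the medians and a dotted line at equal reads. The SCE medians are 1.44 at day 45 and 4.90 at day 25, above the dotted line, and the healthy medians are 0.752 and 0.381, below it.

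miR-146b and the paralog ratio both moved with the share of miR-486. Over the 17 cows the log2 level of miR-146b correlated with that share at r = 0.79 (permutation adjusted p = 0.0017 over 12 tests) and rho = 0.72 (permutation adjusted p = 0.020). It was r = 0.67 without the 2 cows farthest from the median share, 0.74 within SCE and 0.85 within healthy cows. The log2 ratio of miR-146a to miR-146b correlated with it at r = -0.77 (permutation adjusted p = 0.0010 over 4 tests) and rho = -0.67 (permutation adjusted p = 0.018), with r = -0.68 without the 2 farthest cows, -0.69 within SCE and -0.59 within healthy cows. This last relation was computed after the ratios had been seen. With a red blood cell term in the edgeR fit, the log2 ratio of miR-486 over miR-23a, the log2 fold change of miR-146b turned to 0.92 over both days (edgeR adjusted p = 0.989), and with miR-451 in the place of miR-486 it was -0.36 (edgeR adjusted p = 0.781). miR-23a is itself on the list for neutrophils and monocytes used below. Its SCE-minus-healthy log2 fold change over both days was 0.68 (SE 0.28, edgeR adjusted p = 0.238). The term depends on miR-23a as well as on the red blood cell miRNA, and what it measures was not tested. The other 5 miRNAs had r between -0.38 and 0.20 with the share of miR-486 over all cows, and none of these or of the correlations with total count passed (permutation adjusted p of 0.121 or more). Within SCE r was -0.15 for miR-155 and -0.14 for miR-142-3p, against -0.86 and -0.79 within the 6 healthy cows, and these within-status values were not tested. With total count the largest r was 0.61, for miR-142-5p (permutation adjusted p = 0.121). It was 0.33 without the 2 cows farthest from the median total, 0.54 within SCE and 0.85 within healthy cows.

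**Figure D4:**
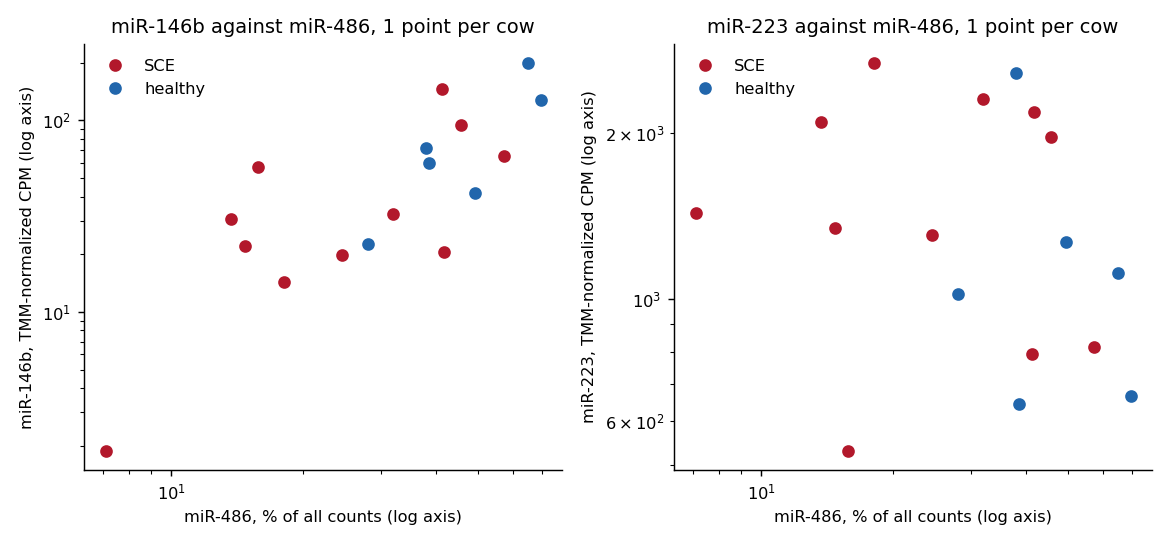
Level of miR-146b (left) and miR-223 (right) in TMM-normalized CPM against the share of counts taken by miR-486, 1 point per cow with both days summed and log axes. miR-146b runs upward with miR-486 at r = 0.79, SCE cow 16 lies lowest on both axes of the left panel with 7.09% miR-486, and miR-223 shows r = -0.21.

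miR-155, induced in activated macrophages and lymphocytes, had an estimate whose sign differed between the days and passed the test at neither. At day 45 it ranged from 47.3 to 317 CPM with a median of 169 in SCE cows, against 47.0 to 247 CPM with a median of 81.3 in healthy cows. In SCE 9 of 11 cows lay above the healthy median, and 1 of them, cow 8, above the healthy range. The log2 fold change was 0.59 (SE 0.44, edgeR adjusted p = 0.668). At day 25 the range was 40.6 to 249 CPM with a median of 177 in SCE cows, against 340, 206, 119, 73.1 and 39.5 CPM in healthy cows. The SCE cows lay within the healthy range, at a log2 fold change of -0.10 (SE 0.48, edgeR adjusted p = 0.916) that turned to 0.50 without healthy cow 4. Over both days it was 0.35 (SE 0.35, edgeR adjusted p = 0.602).

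None of the 6 miRNAs passed the test of day 45 against day 25 in either status. In SCE cows edgeR called 0 of 346 miRNAs (0% background), with 14 (4.05%) at an unadjusted p under 0.05. In healthy cows it called 0 of 345 (0% background), with 10 (2.9%) at an unadjusted p under 0.05. With the cow as a block the unadjusted counts were 24 and 2, and again no miRNA was called. DESeq2 also called none in either status. Day-45-minus-day-25 log2 fold changes in SCE cows ran from -0.55 for miR-146a to 0.32 for miR-142-3p (edgeR adjusted p from 0.834 to 0.945), positive for 3 of 6 beside 41.6% of all tested. In healthy cows they ran from -0.47 for miR-155 to 0.34 for miR-142-5p (edgeR adjusted p = 0.9999), positive for 4 of 6 beside 52.8%. Without healthy cow 4 the value in healthy cows turned to 0.58 for miR-223 and 0.29 for miR-155. miR-223 was higher at day 45 in 7 of 11 SCE cows and in 1 of 5 healthy cows, and miR-142-5p in 4 of 11 SCE cows and 4 of 5 healthy cows. The difference of the day effects was tested directly, and edgeR called 0 of 406 miRNAs (0% background, 7 or 1.72% at an unadjusted p under 0.05, 0 by DESeq2). It was 0.67 for miR-223 (SE 0.58) and -0.35 for miR-142-5p (SE 0.45), and positive for 3 of 6 beside 50.2% of all tested, with edgeR adjusted p = 0.988 for all 6.

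Of the 4 within-library ratios, that of miR-223 to miR-142-5p had the lowest p for a difference of day effects, and it did not pass. Day 45 minus day 25 it was 0.36 on the log2 scale in SCE cows, higher in 7 of 11, and -1.08 in healthy cows, higher in 1 of 5. The healthy value was -0.27 without healthy cow 4, whose log2 ratio was -5.97 at day 45 and -1.68 at day 25. With all 5 healthy cows the difference of 1.44 had an exact permutation p of 0.0524 (0.210 adjusted over 4 ratios). Within the 5 healthy cows alone a sign-flip test cannot give a p under 0.0625.

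Single cows moved a great deal between samplings. Healthy cow 4 had 555 CPM of miR-223 at day 45 and 3000.3 at day 25, with 642 and 2537 CPM of miR-142-3p and 90.9 and 340 CPM of miR-155. Its miR-142-5p was highest in the other sample, with 34925 CPM at day 45 and 9639 at day 25. SCE cow 8 had 3359 CPM of miR-142-3p at day 45 and 206 at day 25, with 317 and 40.6 CPM of miR-155 and 2643 and 571 CPM of miR-223. In both of these cows miR-223, miR-142-3p and miR-155 stood high in the same sample, which did not hold for every cow. SCE cow 10 had 2254 CPM of miR-223 at day 45 and 1581 at day 25. Its miR-142-3p went the other way, with 835 and 1654 CPM, as did its miR-155, with 47.3 and 120 CPM.

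A cow's level at day 45 was only loosely tied to its level at day 25. Over the 16 cows with both days r was 0.62 for miR-146a, 0.43 for miR-146b, 0.28 for miR-142-3p, 0.19 for miR-223, 0.07 for miR-155 and -0.41 for miR-142-5p, beside a median of 0.25 for the 406 miRNAs tested. None passed over the 6 tests, the lowest being miR-146a (permutation adjusted p = 0.065, rho = 0.63), whose r was 0.39 without the 2 cows farthest from the median. The value for miR-142-5p became 0.0004 with library totals alone.

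miR-223, miR-142-3p and miR-155 varied together across cows. miR-223 and miR-142-3p correlated at r = 0.87 and rho = 0.88 (permutation adjusted p = 0.0004 over 15 pairs), miR-142-3p and miR-155 at r = 0.79 and rho = 0.82 (permutation adjusted p = 0.0010), and miR-223 and miR-155 at r = 0.71 and rho = 0.72 (permutation adjusted p = 0.0051). They were close to these values without the 2 cows farthest from the median, at r = 0.84, 0.81 and 0.61, within SCE at 0.93, 0.66 and 0.77, and within healthy cows at 0.74, 0.94 and 0.60. With library totals alone they were 0.93, 0.87 and 0.85. Across all 87153 pairs of tested miRNAs the median r was 0.01 and the 95th percentile 0.65.

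miR-155 ran against the miR-146 paralogs under TMM. Its r with miR-146b was -0.69 (rho = -0.75, permutation adjusted p = 0.0093), -0.75 without the 2 farthest cows, -0.66 within SCE, -0.77 within healthy cows and -0.59 with library totals alone. With miR-146a it was -0.58 (rho = -0.60, permutation adjusted p = 0.043), and the sign turned with library totals alone, where r was 0.08. miR-146a and miR-146b had r = 0.51 with each other (permutation adjusted p = 0.091). miR-142-5p passed with none of the other 5 over all cows under TMM, and its r differed by status in sign for some of them, untested. It was 0.58 within SCE and -0.85 within healthy cows for miR-223, 0.53 and -0.43 for miR-142-3p, and 0.82 and -0.25 for miR-155. With library totals alone it correlated with miR-155 at 0.73 (permutation adjusted p = 0.0061) and with miR-142-3p at 0.56 (permutation adjusted p = 0.049), so its relation to the others depends on the scaling.

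**Figure D5:**
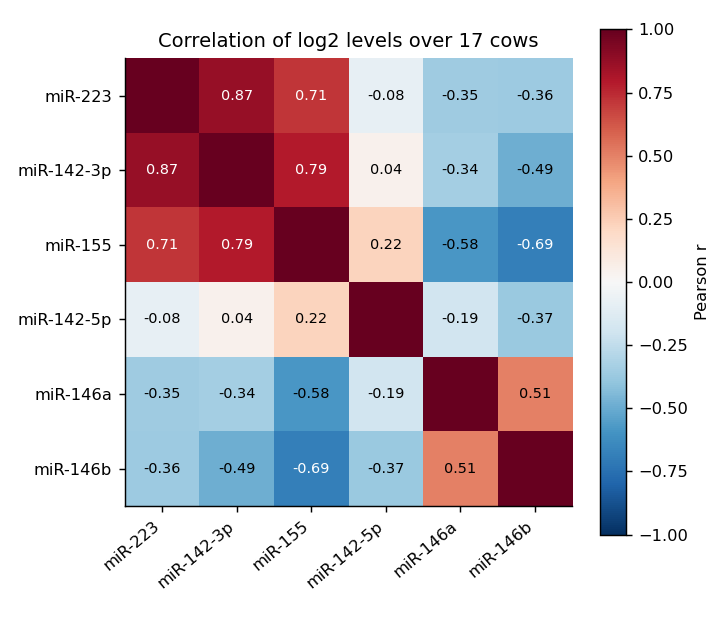
Pearson r between the log2 TMM-normalized CPM of each pair of the 6 miRNAs over 17 cows, both days summed, from blue (-1) to red (1). miR-223, miR-142-3p and miR-155 form a red block (0.71 to 0.87), miR-146a and miR-146b are negative with that block (-0.34 to -0.69), and miR-142-5p is close to 0 with miR-223 and miR-142-3p.

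For each of the 6, the 3 most similar miRNAs were taken by Pearson r of log2 levels over the 17 cows among the 418 tested, as a description with no test. miR-223 was most like miR-17-5p (0.95), miR-18a (0.94) and miR-20a (0.92), and miR-142-3p like miR-18a (0.94), miR-345-3p (0.93) and miR-2285am-5p (0.92). miR-155 was most like miR-26b (0.94), let-7d (0.88) and miR-181d (0.88). miR-146a was most like miR-126-3p (0.77), miR-199a-5p (0.70) and miR-450b (0.67), and miR-146b like miR-24-3p (0.88), miR-409b (0.85) and miR-127 (0.81). miR-142-5p had miR-219-5p (0.82), miR-219b-3p (0.79) and miR-2285af (0.78), which were themselves at 1.47, 1.40 and 0.995 CPM. For these 3, r was 0.51, 0.41 and 0.53 within SCE and 0.96, 0.96 and 0.90 within healthy cows. miR-2285am-5p, named above for miR-142-3p, was also scarce, at 1.70 CPM.

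Other miRNAs of the same 2 roles did not pass either. Of the 16 further miRNAs listed for neutrophils and monocytes, 12 were tested at day 45 and 13 at day 25, and of the 14 further inflammation-induced miRNAs, 13 and 12. edgeR called none of them in any of the comparisons of status or day. miR-27a-3p, the most abundant of the myeloid list, had an SCE-minus-healthy log2 fold change of 0.40 at day 45 (SE 0.38, edgeR adjusted p = 0.708) and 1.34 at day 25 (SE 0.43, edgeR adjusted p = 0.185), followed in abundance by miR-378 with -0.03 and -0.59 and miR-23a with 0.52 and 0.71. miR-21-5p, an abundant miRNA raised in many inflamed tissues, had 0.03 at day 45 (SE 0.62, edgeR adjusted p = 0.995) and -1.64 at day 25 (SE 0.61, edgeR adjusted p = 0.185), followed by miR-221 with -0.06 and -0.79 and miR-21-3p with -0.55 and 0.58. Over both days 9 of 14 myeloid and 7 of 13 inflammation-induced miRNAs had a positive log2 fold change, beside 53.1% of all tested. Their median log2 fold changes were 0.24 and 0.04.

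Lists for other possible sources of RNA in blood were also free of calls. Over both days a positive SCE-minus-healthy log2 fold change was held by 2 of 11 red blood cell miRNAs (median -0.41), 5 of 12 of platelets (-0.17), 10 of 11 of lymphocytes (0.66), 3 of 6 of liver (-0.17) and 6 of 7 of epithelium (0.87). The lists name no cell of origin in a cell-free sample. Their most abundant members had log2 fold changes of -1.44 for miR-486 of the red blood cell list, -0.26 for miR-191 of the platelet list, 0.97 for miR-26a of the lymphocyte list, -0.87 for miR-192 of the liver list and -0.14 for miR-375 of the epithelium list (edgeR adjusted p from 0.191 to 0.883). Red blood cell miRNAs summed to a median of 39.9% of counts in SCE cows at day 45, 14.4% in SCE cows at day 25, 50.3% in healthy cows at day 45 and 48.6% in healthy cows at day 25. Those of the lymphocyte list, with miR-26a the most abundant, summed to 2.83%, 6.11%, 1.11% and 1.06% in the same order of groups. The part of these sources in the levels of the 6 miRNAs was not tested.

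In the RefSeq gene table of the ARS-UCD2.0 cattle assembly the 6 mature miRNAs come from 5 genes. MIR142 gives both arms and overlaps TSPOAP1 and an uncharacterized long non-coding RNA gene. MIR223 overlaps VSIG4 and another uncharacterized long non-coding RNA gene, with HEPH and MSN as its neighbours on either side. Strand was not compared. MIR146B neighbours CUEDC2 and MIR155 neighbours MRPL39. MIR146A has only uncharacterized loci beside it. The count files use another build, UMD 3.1, so no positions are given.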

How the data were processed

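Each library has 1 deposited file of whole-number counts by mature miRNA name. Per the labels' protocols, 10 to 20 ng of RNA entered a TruSeq Small RNA preparation with 13 or 16 PCR cycles, and the sources used here do not say which library had which. Reads were demultiplexed with bcl2fastq 2.17.1.14 and the build was UMD 3.1, per the submitters' processing notes, which also name DESeq2. The sources used here name no aligner, counter or miRNA annotation. No molecular identifiers are named, so counts are of reads after PCR.

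The 6 miRNAs, the lists and the tests were chosen with earlier results of these data known. Files were joined by miRNA name. Although 6 healthy cows were planned for day 25, 5 were used because 1 file was a copy. edgeR 4.0.16 in R 4.3.3 was run with TMM, its default filter on low counts and the quasi-likelihood F test, two-sided, on all miRNAs, with standard errors from the log2 fold change and F. Status was tested within each day and on the sum of each cow's 2 libraries, where healthy cow 3 has its day-45 library only. Day tests used libraries without a cow block, so they treated the 2 libraries of a cow as independent, and the block was run as an alternative. The cows are the same at both days. Over the 16 cows with both, the median r between the deviations of a cow's libraries was 0.25, with r over 0.1 in 11, against -0.03 between cows. It ran from -0.25 in SCE cow 8 to 0.81 in SCE cow 16, so the likeness of a cow's libraries was loose.

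Within-library ratios are log2 of counts plus 0.5, tested by exact permutation of status or exact sign flips of paired cows. Correlations over cows used 100000 permutations of log2 CPM with a prior count of 2, adjusted within each family. Scripts were tested on simulated counts. Named miRNAs are the 6, the 3 most correlated with each, the 3 most abundant further miRNAs of the myeloid and inflammation-induced lists and any of them called, and the most abundant of each other list, which were miR-486, miR-191, miR-26a, miR-192 and miR-375. miR-451 enters only as a covariate. Alternatives were DESeq2 1.42.0 size factors, library totals alone, no low-count filter, DESeq2 itself, red blood cell ratios as covariates, the cow block, another pseudocount and leaving out each cow.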

Additional observations from a re-analysis of the deposited data

Results flagged for a closer look

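Of 26 healthy groups of values checked, 6 had 1 cow set apart from the others by more than Dixon's 95% limit. Chance gives about 1 in 20 only for independent groups of normal values. These groups share cows and libraries, and levels were checked as CPM off the log scale, so the 6 cannot be set against that rate. All 6 concern 3 healthy cows. Healthy cow 4 at day 25 had 3000.3 CPM of miR-223, against 615 to 939 CPM in the other healthy cows, and 2537 CPM of miR-142-3p, against 157 to 778 CPM. Healthy cow 3 had 2071 CPM of miR-223 at day 45, against 555 to 1082 CPM in the others, and 2562 CPM in the fit on summed counts, which for this cow is the same day-45 library scaled among cow sums. Healthy cow 5 at day 25 had 200.4 CPM of miR-146a, against 11.4 to 54.3 CPM, and a log2 ratio of miR-146a to miR-146b of 1.55, where the other 4 healthy cows were negative. SCE groups hold more than 10 cows and were not checked in this way.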

How the results depend on the processing

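No miRNA of the 6 was called in any comparison under any alternative but 1, library totals alone over both days, which called 1 of them, miR-223. The number of all miRNAs called between statuses did depend on the setting. At day 25 it was 4 with DESeq2 size factors, 48 with library totals alone, 6 with no filter, 14 with DESeq2 and 2 with the miR-451 covariate. At day 45 it was 1 with library totals alone, 1 with DESeq2 and 1 with the miR-451 covariate. Over both days it was 64 of 418 with library totals alone, all higher in SCE cows, 2 with no filter, 15 with DESeq2 and 0 with either covariate. The test of the difference of day effects called 1 miRNA with no filter. Leaving out 1 cow gave 0 to 7 calls at day 25 and 0 to 10 over both days. The cause of these shifts was not tested.

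Some estimates turned sign, among them that of miR-146b, which was -0.94 at day 45, -0.46 at day 25 and -0.67 over both days with TMM. For SCE minus healthy at day 25, miR-223 was -0.092 with DESeq2 size factors and with DESeq2, -0.69 with the miR-486 covariate and -0.045 with that of miR-451. With the miR-486 covariate miR-142-5p was -0.083, miR-142-3p -0.46 and miR-146b 1.02, and with library totals alone miR-146b was 0.16 and miR-155 0.81. At day 45 miR-142-5p was 0.56 with library totals alone and 0.071 and 0.13 with the miR-486 and miR-451 covariates, and miR-146b was 0.12 with miR-486. Over both days miR-142-5p was -0.0084 with no filter, and miR-146b was 0.077 with library totals alone and 0.92 with the miR-486 covariate. For day 45 minus day 25 in SCE, miR-223 was -0.070 and miR-155 -0.21 with library totals alone, and miR-142-5p was 0.046 with DESeq2 size factors and 0.041 with DESeq2. In healthy cows miR-142-3p was -0.19 and -0.20 and miR-146a -0.093 and -0.099 under the same 2 settings, miR-146a was -0.40 with library totals alone and -0.067 with no filter, and miR-146b was -0.064 with library totals alone. The difference of day effects of miR-142-3p was -0.089 with library totals alone.

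With the cow as a replicate block no call changed. miR-146b then had a day difference of 0.40 in SCE and -0.14 in healthy cows, and a difference of day effects of 0.53, and that of miR-142-3p was -0.27. DESeq2 size factors moved the median of all miRNAs by 0.15 for the day effect in SCE, -0.12 in healthy cows and 0.17 for their difference. Library totals alone moved the correlations of miR-223 with miR-142-5p to 0.54 and with miR-146a to 0.15, of miR-142-5p with miR-142-3p to 0.56, miR-146a to 0.46 and miR-155 to 0.73, and of miR-146a with miR-142-3p to 0.11 and miR-155 to 0.082. They moved the r between days of miR-142-5p to 0.00038.

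Leaving out each cow in turn kept all 6 uncalled. For SCE minus healthy at day 25 the log2 fold change ran from -0.13 to 0.79 for miR-223, -0.090 to 1.26 for miR-142-3p and -0.36 to 0.50 for miR-155. For miR-142-5p it ran from -0.17 to 0.16 at day 45 and -0.079 to 0.22 over both days. For day in SCE it ran from -0.16 to 0.021 for miR-142-5p, -0.046 to 0.44 for miR-142-3p and -0.20 to 0.20 for miR-155. For day in healthy cows it ran from -0.77 to 0.58 for miR-223, -0.35 to 1.29 for miR-142-3p, -0.25 to 0.60 for miR-146a, -0.064 to 0.25 for miR-146b and -0.98 to 0.29 for miR-155. The difference of day effects ran from -0.17 to 1.144 for miR-223 and -0.72 to 0.73 for miR-142-3p. The mean log2 excess of miR-146a over miR-146b ran from 0.43 to 0.79. Log2 ratios of miR-142-5p to miR-142-3p ran from -1.13 to 0.10 between statuses at day 25, -0.46 to 0.12 between days in SCE and -0.55 to 0.73 between days in healthy cows. That of miR-223 to miR-142-5p at day 25 ran from -0.62 to 0.39, and that of miR-155 to miR-146a from -0.12 to 0.81 at day 45 and -0.52 to 0.35 over both days. The status difference in the ratio of miR-146a to miR-146b stayed positive in each, at 2.72 to 3.78 at day 25, 1.18 to 1.64 at day 45 and 1.38 to 1.97 over both days (exact permutation adjusted p from 0.059 to 0.563). miR-146b had 6 reads in its lowest library, of 10785168 counts, so its ratio there rests on few reads.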
